A study of Homo sapiens with 24 samples.

Results

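The genes described here are 64 protein-coding genes whose mRNA stood higher at 48 h than at 0 h in untreated SK-MES1 cells and stayed near or below its 0 h level in the cells stimulated with TGFβ1. SK-MES1 is an established human cell line of squamous lung carcinoma. Gene levels are given in TPM, each transcript's length-corrected share of its library on a fixed scale, summed over the transcripts of a gene. A gene was a member if its mean TPM plus 0.5 at 48 h was at least 2.5 times that at 0 h in the control arm and at most 1.3 times that at 0 h in the TGFβ arm. Genes entered this choice if their mean reached 5 TPM in at least 1 of the 8 groups, which 11317 protein-coding genes did. Of these, 535 passed the control ratio and 64 (0.566% of the 11317) also stayed under the limit in the TGFβ arm. The members are thus 11.96% of the genes that passed the control ratio.

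Untreated cells that are cultured on without fresh growth factors change their gene expression with time, and a treatment is read against that moving baseline. TGFβ is a secreted cytokine that signals through serine/threonine kinase receptors to the transcription factors Smad2 and Smad3. In carcinoma cells it is best known for inducing epithelial-to-mesenchymal transition. Interferon-stimulated genes, the largest group among the members, encode antiviral proteins and are switched on by a complex with IRF9 and STAT2 that binds the interferon-stimulated response element in their promoters.

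All cells were SK-MES1 and were starved of serum for 3 h before time 0. The control arm was then left untreated and the TGFβ arm received 2 ng/ml TGFβ1, with RNA taken at 0, 8, 24 and 48 h from 3 biological replicates per arm and time, which gives 24 libraries. A single cell line limits what the groups can stand for. The libraries held from 46613589 to 77964234 estimated counts, with a median of 54120879. The deposited tables carry 4 codes. Each arm has its own code for 0 and 8 h and another for the later times, so that code and arm cannot be told apart at any one time. In each arm the step from 8 h to 24 h also crosses from 1 code to the next.

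The label of the cells was checked against marker genes. TP63 (7.69 to 37.5 TPM over the libraries), S100A2 (485 to 2952 TPM), SFN and PKP1 were present. Of the other listed markers of squamous and basal cells, the keratins KRT5, KRT6A and KRT14 and the desmoglein DSG3 did not exceed 0.102 TPM in any library. The keratins KRT15 and KRT17 had medians of 12.04 and 3.203 TPM over the libraries and reached 21.03 and 71.39 TPM. SOX2 and TRIM29 reached 8.17 and 1.139 TPM. KRT7, KRT8, KRT18 and KRT19, keratins of simple epithelia, each stood above 210 TPM in every library. NKX2-1, NAPSA, SFTPB and SFTPC, from the same list of simple epithelium or adenocarcinoma markers, did not exceed 1.15 TPM in any library. Of 10 leukocyte markers, 4 reached 1 TPM in any library, and their summed level was 14.6 to 38.2 TPM in the control arm and 12.4 to 45.5 TPM in the TGFβ arm. CD68 (7.64 to 40.2 TPM), CD163 (1.70 to 3.75 TPM) and PTPRC (1.26 to 2.10 TPM) were present in every library, while CD3E and MS4A1, defining markers of T and B cells, were at 0 in every library. The summed level of 8 fibroblast markers was 211 to 318 TPM in the control arm and 194 to 2415 TPM in the TGFβ arm. COL1A1 made up 71.95% to 95.5% of this sum in the control arm and 92.4% to 97.9% in the TGFβ arm, and COL1A2 did not exceed 0.221 TPM. LUM (3.03 to 24.1 TPM), PDGFRA (3.17 to 11.3 TPM), PDGFRB (1.90 to 21.5 TPM) and COL3A1 (2.31 to 9.34 TPM) were present in every library. DCN went from 0.332 to 13.4 TPM and FAP from 0.051 to 6.39 TPM over the libraries. The ratio of 48 h to 0 h for DCN was 11.9 in the control arm and 1.495 in the TGFβ arm. The part of these markers in the results was not tested. The libraries are of bulk cells, so that fewer cells with an mRNA and less mRNA per cell cannot be told apart.

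Because the rule used the libraries of 0 h and 48 h, the values at these times are a description. The median ratio of 48 h to 0 h was 3.13 in the control arm and 0.961 in the TGFβ arm. The largest control ratio was 13.6, for SLPI, and the smallest ratio in the TGFβ arm was 0.43, for ATOH8. In 37 of the 64 members the mean in the TGFβ arm was lower at 48 h than at 0 h. Just inside the control limit lay H1-2 (2.502), EVA1C (2.511) and ELF3 (2.512), and just outside it SESTD1 (2.466), DDX60 (2.461) and CYP4F12 (2.445). Just inside the limit of the TGFβ arm lay USP18 (1.2995), STING1 (1.292) and IFIT5 (1.289), and just outside it PPL (1.309), ANGPT1 (1.349) and RRAGD (1.352).

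**Figure D1:**
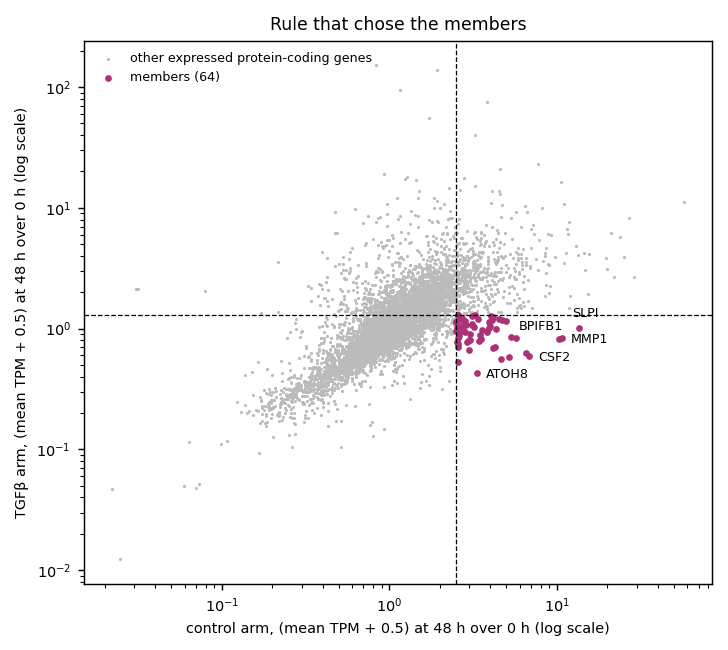
Ratio of (mean TPM + 0.5) at 48 h to that at 0 h in the control arm (horizontal, log scale) and in the TGFβ arm (vertical, log scale) for 11317 protein-coding genes, with dashed lines at the limits of 2.5 and 1.3. The 64 members fill the lower right corner, with SLPI farthest to the right and ATOH8 lowest.

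The libraries of 8 h and 24 h took no part in the ratios, although they counted toward the limit of 5 TPM. One member, PCDH20, met that limit only through its control libraries of 24 h, with a mean of 5.24 TPM, so that its 24 h difference and its control rise from 8 h to 24 h are not independent of the choice. The arms were compared at 8 h and 24 h with limma voom over 17453 genes at an adjusted p-value below 0.01. At 8 h, 39 of the 64 members were lower in the TGFβ-treated cells and 0 were higher, where 7.26% of all genes were lower and 9.12% were higher. The median log2 difference, TGFβ minus control, was -0.46 over the members and -0.02 over all genes. At 24 h, 62 members were lower and 0 were higher, against 13.8% and 15.4% of all genes, with a median log2 difference of -1.21 over the members. Without PCDH20, 38 of 63 members were lower at 8 h and 61 at 24 h. The members not called at 24 h were IFIT5 and OAS3. All 39 members that were lower at 8 h were also lower at 24 h. Among the members called lower, the log2 difference was below -1 in 12 at 8 h and in 40 at 24 h. Shares over all genes were not counted for this limit or for genes lower at both times.

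Every library of the TGFβ arm lay below every control library for 54 members at 8 h, as it did for 31.2% of all genes, and for all 64 members at 24 h, as it did for 23.2% of all genes. At 0 h the libraries were separated in this way for 2 members, FHDC1 and PAPLN. The 0 h libraries took part in the rule, and the share over all genes was not counted at that time. The 8 h difference minus the 0 h difference, which removes a constant offset between the codes of the arms but shares its 0 h libraries with the rule, was negative and called in 27 members and positive in 0, against 2.84% and 5.05% of all genes. The 24 h libraries share their code with the 48 h libraries that chose the members.

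Within the control arm, 52 members rose from 8 h to 24 h and 2 fell, BIRC3 and OAS3, where 16.2% of all genes rose and 16.8% fell. Within the TGFβ arm, 13 members rose and 10 fell, where 14.6% of all genes rose and 13.9% fell. The median log2 change from 8 h to 24 h was 0.82 in the control arm and 0.04 in the TGFβ arm. The difference between these changes was tested directly. It was below 0 and called in 40 members and above 0 in 0, against 2.54% and 4.14% of all genes, with a median of -0.64. In limma voom 0 members were higher with TGFβ at 8 h, at 24 h or in this difference even at an unadjusted p below 0.05, and 0 were called higher by edgeR or DESeq2.

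**Figure D2:**
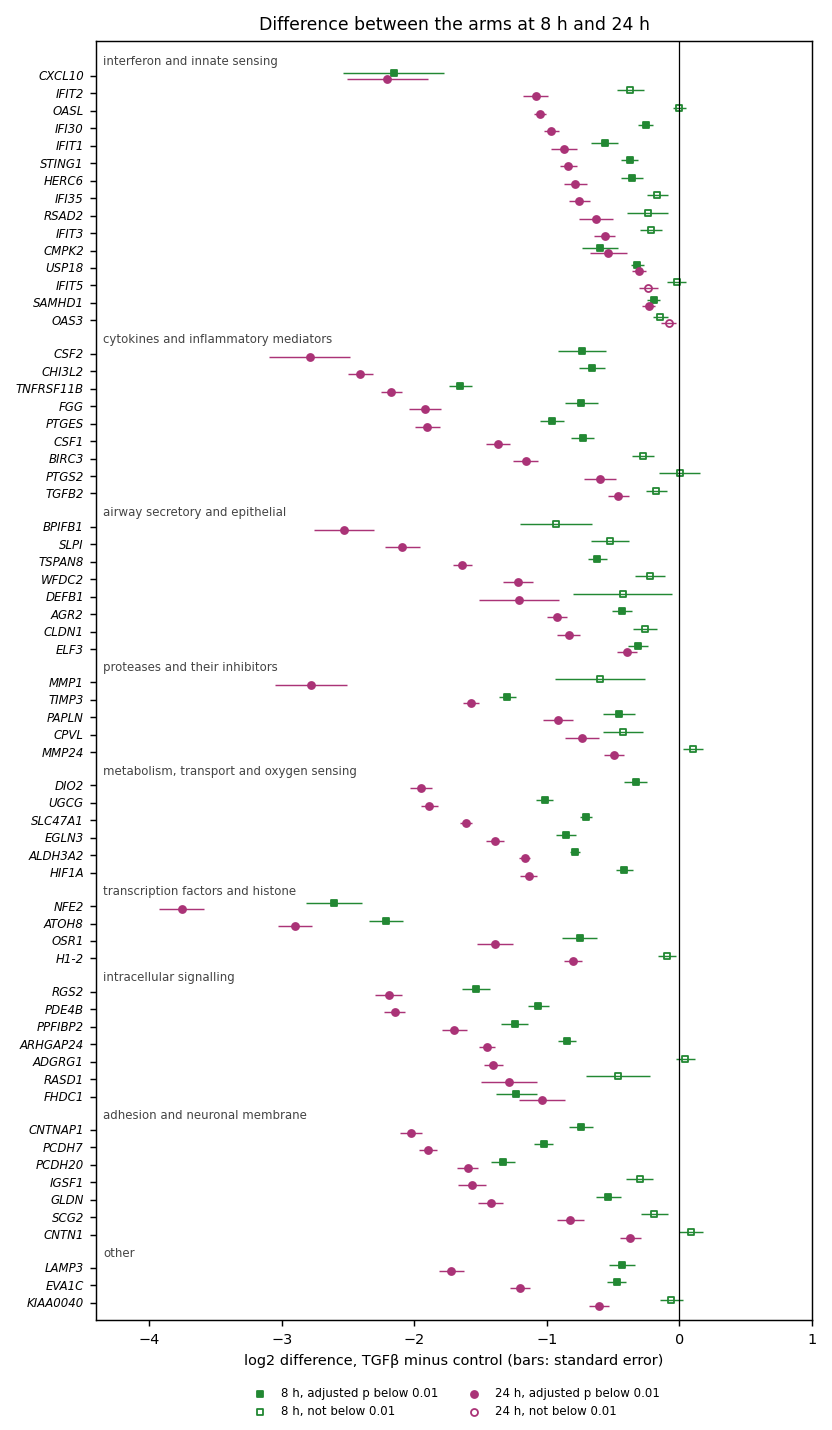
Log2 difference between the arms (TGFβ minus control, horizontal) with its standard error for each of the 64 members at 8 h (squares) and 24 h (circles), grouped by role; filled symbols passed an adjusted p below 0.01 in limma voom. The 24 h symbols of all 64 members lie to the left of 0, and 62 of them are filled.

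The members moved differently in the 2 arms over the first 8 h. This is a description, because the rule used the 0 h libraries, and shares over all genes were not counted. In the control arm the mean TPM of 48 members was higher at 8 h than at 0 h, and in 41 of them every 8 h library lay above every 0 h library. In the TGFβ arm the mean of 41 members was lower at 8 h than at 0 h, and in 31 of them every 8 h library lay below every 0 h library. The 49 members outside the interferon group carried most of this contrast, with 7 of them below their 0 h mean at 8 h in the control arm and 29 in the TGFβ arm. Of the 15 interferon members, 9 lay below their 0 h mean at 8 h in the control arm and 12 in the TGFβ arm.

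The largest group, with 15 members, comprised genes of the interferon response and of innate sensing. Most of them reached their control level of 48 h late, after 24 h. At 8 h, 8 of the 15 were lower with TGFβ, and at 24 h 13 of them were, with a median log2 difference of -0.75 at 24 h. From 8 h to 24 h, 9 of the 15 rose in the control arm and 6 in the TGFβ arm, against 43 and 7 of the 49 other members. This change was called smaller in the TGFβ arm in only 5 of the 15, against 35 of the 49. IFIT1, IFIT2, IFIT3 and IFIT5 encode tetratricopeptide-repeat proteins that bind viral RNA or its translation machinery, and they lie side by side within chr10:89283694-89421605 of GRCh38. Of the 11 interferon members with a promoter in the table used, 5 held a match to the interferon-stimulated response element and 6 did not. Of these 5, the promoters of 4 are shown, because that element is the binding site named above. They are the 200 bases before the start site in the RefSeq table for GRCh38.p14, each on the plus strand, at chr10:89392423-89392622 for IFIT1, chr10:89327797-89327996 for IFIT3, chr10:89414368-89414567 for IFIT5 and chr12:112938274-112938473 for OAS3. Capitals mark each match on either strand to the element, searched as 2 runs of TTTC with any 2 bases between them.
IFIT1: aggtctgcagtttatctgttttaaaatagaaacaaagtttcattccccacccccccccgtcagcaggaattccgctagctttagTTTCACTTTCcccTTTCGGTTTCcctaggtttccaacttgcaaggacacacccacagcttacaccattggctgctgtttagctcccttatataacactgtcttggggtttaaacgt
IFIT3: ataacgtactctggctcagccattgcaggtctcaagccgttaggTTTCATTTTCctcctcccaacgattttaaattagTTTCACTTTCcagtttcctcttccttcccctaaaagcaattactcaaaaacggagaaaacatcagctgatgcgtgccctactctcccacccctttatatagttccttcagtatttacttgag
IFIT5: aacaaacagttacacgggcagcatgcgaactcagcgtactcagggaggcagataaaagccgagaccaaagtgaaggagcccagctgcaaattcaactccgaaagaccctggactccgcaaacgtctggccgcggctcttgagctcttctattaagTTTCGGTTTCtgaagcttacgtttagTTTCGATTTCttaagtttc
OAS3: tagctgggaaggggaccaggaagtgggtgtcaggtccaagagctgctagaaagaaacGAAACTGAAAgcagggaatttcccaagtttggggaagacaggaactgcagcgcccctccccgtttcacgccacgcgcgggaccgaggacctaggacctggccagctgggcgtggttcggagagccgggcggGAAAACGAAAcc
The matches start 116 and 103 bases before the start site in IFIT1, 156 and 122 bases before it in IFIT3, 45 and 19 bases in IFIT5, and 143 and 12 bases in OAS3. CXCL10 held the fifth match among the members, farther upstream than the bases shown. Of the 27305 promoters of 300 bases in the table, 996 (3.65%) held the motif, which does not overlap itself in these 4. Only 48 of the 64 members had a promoter in the table, so that a share over the members is void. The motif was added to the search after the members were seen, and a match describes letters and not binding.

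IFIT1 stood at 30.9, 29.9 and 28.1 TPM in the control libraries at 8 h, 46.4, 57.4 and 45.2 at 24 h and 159, 153 and 148 at 48 h. The TGFβ libraries were at 17.9, 18.6 and 20.4 TPM at 8 h, 23.6, 31.2 and 24.9 at 24 h and 36.8, 35.6 and 38.6 at 48 h. The arms did not overlap at any of these times, and the control arm held most of its rise for the step from 24 h to 48 h. The log2 difference was -0.56 ± 0.10 (SE) at 8 h and -0.87 ± 0.10 at 24 h (limma voom, adjusted p = 0.00023 and 2.6e-07). IFIT2 was at 35.2, 42.6 and 35 TPM in the control arm and 15.8, 20.2 and 16.2 TPM in the TGFβ arm at 24 h, without overlap. Its log2 difference there was -1.09 ± 0.10 (adjusted p = 8.1e-09). IFIT2 and IFIT3 share exon positions with LIPA on the other strand, a lysosomal lipase at up to 126 TPM, and how reads were assigned by strand is not given in the sources used here. LIPA itself was lower with TGFβ at 24 h, with a log2 difference of -0.29 ± 0.06 (adjusted p = 0.00066), and its part in the 2 values was not tested.

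IFIT5 was the weakest of the 4 neighbours. At 24 h its libraries stood at 7.31, 9.09 and 8.11 TPM in the control arm and 6.24, 7.30 and 6.78 TPM in the TGFβ arm, apart by a narrow gap. The log2 difference of -0.23 ± 0.07 did not pass (limma voom, adjusted p = 0.016). Without replicate 1 of the control arm at 24 h it was -0.31 and passed (adjusted p = 0.003), as it did at -0.23 without replicate 2 of the TGFβ arm at 0 h (adjusted p = 0.009). When the libraries were scaled to 4 reference genes the sign turned, to 0.12. At 48 h the values were 18.6, 19.1 and 18.3 TPM in the control arm and 9.09, 9.04 and 9.70 TPM in the TGFβ arm.

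OASL and OAS3 belong to the oligoadenylate synthetase family, which senses double-stranded RNA, though OASL itself lacks the enzyme activity. OASL was lower at 8 h than at 0 h in both arms, with 30.02, 28 and 31.8 TPM at 0 h and 18.2, 17.3 and 16.8 TPM at 8 h in the control arm. With TGFβ it was at 28.9, 27.1 and 28.9 TPM and 16.5, 16.8 and 16.5 TPM at these times. At 24 h it was at 48, 47.1 and 48.1 TPM in the control arm and 22.5, 22.6 and 22.9 TPM in the TGFβ arm. The 8 h dip was shared and the rise that followed was unequal, with a log2 change from 8 h to 24 h of 1.47 ± 0.05 in the control arm and 0.42 ± 0.05 in the TGFβ arm (limma voom, adjusted p = 4.3e-15 and 7.5e-07). OAS3, which the naming rule did not select and which is given because its call was missing, fell from 29.9, 30.00 and 28.8 TPM at 8 h to 24.1, 23.3 and 23.2 TPM at 24 h in the control arm. It then stood at 86.6, 80.4 and 74.2 TPM at 48 h in the control arm and at 27.4, 28 and 28.3 TPM in the TGFβ arm. Its arms were close at 24 h and far apart only at 48 h, the time used by the rule, with a 24 h log2 difference of -0.08 ± 0.06 (adjusted p = 0.27).

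USP18, a protease that removes ISG15 and restrains the interferon receptor, was flat in the control arm before 48 h. Its control values were 7.0, 7.16 and 7.33 TPM at 8 h, 7.05, 6.95 and 6.94 TPM at 24 h and 24.1, 22.1 and 22.4 TPM at 48 h. With TGFβ they were 5.54, 5.49 and 5.55 TPM at 8 h, 5.79, 5.49 and 5.34 TPM at 24 h and 9.03, 9.10 and 8.57 TPM at 48 h. The small gap at 8 h and 24 h was even among replicates, with log2 differences of -0.32 ± 0.05 and -0.30 ± 0.05 (limma voom, adjusted p = 6.3e-05 and 8.3e-05), although scaling to 4 reference genes turned the 24 h sign to 0.05. CXCL10, a chemokine that draws T cells, was at 0.815, 0.992 and 1.41 TPM in the control arm and 0.228, 0.113 and 0.336 TPM in the TGFβ arm at 8 h. At 24 h it was at 1.64, 2.80 and 2.04 TPM and 0.509, 0.436 and 0.360 TPM. CXCL10 showed the largest differences of the interferon group, with log2 differences of -2.16 ± 0.38 at 8 h and -2.20 ± 0.31 at 24 h (adjusted p = 0.00019 and 5.5e-06). With TGFβ libraries at 0.113 to 0.509 TPM at these times, the size of both differences is poorly fixed.

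STING1, the adaptor that relays the presence of cytosolic DNA, rose earlier than most of the group. By 24 h it had made 95.0% of its log2 control rise from 0 h to 48 h, where IFI30 had made 67.9% and IFI35 67.0%. The control libraries of STING1 held 24.6, 24.8 and 24.2 TPM at 8 h and 41.9, 38.8 and 42.3 TPM at 24 h, and 43, 43.8 and 42.2 TPM at 48 h. The TGFβ libraries held 19, 19.2 and 18.4 TPM at 8 h, 24.6, 20.1 and 23.1 TPM at 24 h and 22.4, 20.7 and 21.9 TPM at 48 h. The control libraries of 24 h and 48 h nearly coincide, and at 24 h the log2 difference was -0.84 ± 0.06 (limma voom, adjusted p = 7.3e-10). The remaining members of the group are CMPK2, HERC6, IFI30, IFI35, RSAD2 and SAMHD1, which encode a mitochondrial nucleotide kinase, a ubiquitin ligase, a lysosomal thiol reductase, an interferon-induced leucine zipper protein, viperin and a dNTP hydrolase. All 6 were lower with TGFβ at 24 h, with log2 differences from -0.23 for SAMHD1 to -0.96 for IFI30. CMPK2 and RSAD2 overlap on opposite strands, so that their reads may not be separable.

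Other genes of interferon response and antigen presentation were compared from a list. Of 41 tested genes of that list that are no members, 21 were lower with TGFβ at 24 h and 1, GBP1, was higher, with a median log2 difference of -0.37. At 8 h, 9 of the 41 were lower and 1 was higher. For the 36 of them that reached 5 TPM, the median ratio of 48 h to 0 h was 2.76 in the control arm and 1.75 in the TGFβ arm, and 21 passed the control ratio. The mean was higher at 48 h than at 0 h in all 36 in the control arm and in 34 in the TGFβ arm. MX1, an antiviral GTPase, went from a mean of 50.2 ± 1.04 TPM (SD, n = 3) at 0 h to 293 ± 25.6 TPM at 48 h in the control arm, and from 49.0 ± 5.16 TPM to 95.4 ± 1.86 TPM in the TGFβ arm. Of the complex that drives such genes, IRF9 and STAT2 were lower with TGFβ at 24 h, with log2 differences of -0.47 ± 0.07 and -0.37 ± 0.04 (limma voom, adjusted p = 6.1e-06 and 8.4e-07).

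**Figure D3:**
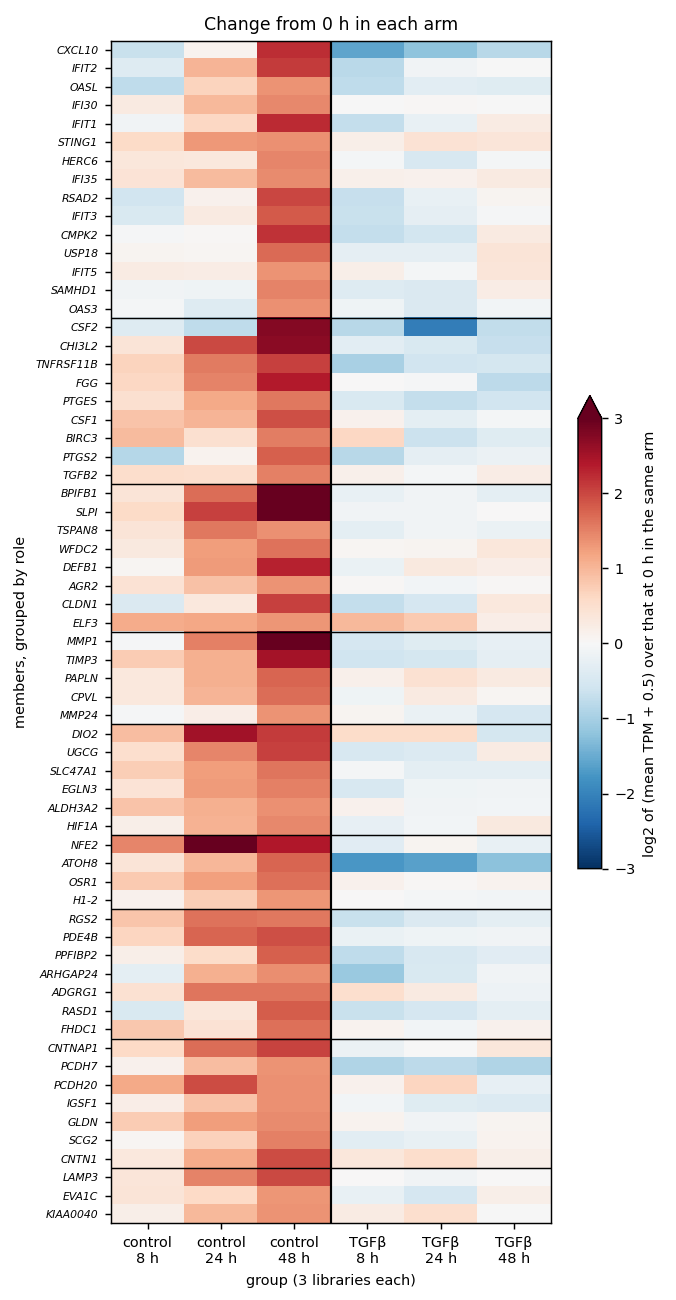
Log2 of (mean TPM + 0.5) over the value at 0 h in the same arm, for the 64 members (rows, grouped by role in the order interferon, cytokines, airway secretory, proteases, metabolism, transcription factors, signalling, adhesion and other) in the 6 later groups (columns, 3 libraries each). In the control columns the interferon rows at the top turn red mainly at 48 h and most other rows already at 24 h, while the TGFβ columns stay pale or blue in most rows.

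The groups of members differed in when the control arm rose, which is a description since 0 h and 48 h chose them. By 24 h the interferon members had made a median of 15.6% of their log2 rise from 0 h to 48 h, and the 49 other members a median of 66.0%. Under 50% of the rise was made by 24 h in 12 of the 15 interferon members and in 13 of the 49 others. From 24 h to 48 h the median ratio in the control arm was 2.98 for the interferon members and 1.495 for the others. In 56 of the 64 members every control library at 48 h lay above every control library at 24 h, which was not counted over all genes. In 6 members the control mean was already higher at 24 h than at 48 h, namely ADGRG1, DIO2, NFE2, PCDH20, RGS2 and TSPAN8.

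Secreted cytokines, their decoys and inflammatory mediators made up 9 members, of which 6 were lower with TGFβ at 8 h and all 9 at 24 h, with a median log2 difference of -1.90 at 24 h. CSF1, the growth factor of macrophages, was the most abundant. It was at 112, 104 and 118 TPM at 0 h, 198, 202 and 201 TPM at 8 h, 226, 208 and 244 TPM at 24 h and 434, 427 and 415 TPM at 48 h in the control arm. Under TGFβ its libraries held 119.6, 113 and 116 TPM at 8 h, 99.9, 73.7 and 84.4 TPM at 24 h and 107, 102 and 97.1 TPM at 48 h. The TGFβ arm ended close to its 0 h level of 105, 98.8 and 114 TPM, and no library overlapped with the control arm from 8 h on. Its log2 difference was -0.73 ± 0.09 at 8 h and -1.37 ± 0.09 at 24 h (limma voom, adjusted p = 1.8e-06 and 7.5e-11).

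CSF2, the granulocyte-macrophage factor, followed another course, lower at 24 h than at 0 h in both arms and high only in the control arm at 48 h. In the control arm it was at 2.91, 2.31 and 2.69 TPM at 0 h, 1.09, 1.25 and 1.68 TPM at 24 h and 19.98, 22.4 and 20.1 TPM at 48 h. TGFβ-treated cells had 2.01, 2.10 and 2.88 TPM at 0 h, 0.176, 0.166 and 0.158 TPM at 24 h and 1.21, 1.17 and 1.19 TPM at 48 h. It was lowest in the TGFβ arm at 24 h, where a mean of 3.67 estimated counts lay near the floor of what could be measured. The log2 difference at 24 h was -2.79 ± 0.31 (limma voom, adjusted p = 2.1e-07), and at this depth its size is poorly fixed. At 8 h the log2 difference of -0.73 ± 0.18 passed (adjusted p = 0.0045), but it did not without replicate 1 or 3 of the TGFβ arm (-0.73 and -0.65) or replicate 1 or 2 of the control arm (-0.73 and -0.70) at 8 h.

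TNFRSF11B encodes osteoprotegerin, a soluble decoy for the cytokine RANKL. It was at 10.7, 11.5 and 10.4 TPM at 0 h, 16, 17.4 and 19 TPM at 8 h, 31.9, 33.4 and 33.9 TPM at 24 h and 45.8, 48.5 and 45 TPM at 48 h in the control arm. In the TGFβ arm it was at 9.98, 13.6 and 10.3 TPM at 0 h, 4.62, 5.80 and 5.97 TPM at 8 h, 8.71, 6.51 and 7.0 TPM at 24 h and 7.58, 7.36 and 8.16 TPM at 48 h. By 8 h the control libraries lay above and the TGFβ libraries below all of their own 0 h libraries. The log2 difference was -1.65 ± 0.08 at 8 h and -2.17 ± 0.08 at 24 h (limma voom, adjusted p = 3e-12 and 5e-15).

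CHI3L2, a chitinase-like secreted protein, and FGG, the gamma chain of fibrinogen, were higher at 48 h than at 0 h in the control arm and lower in the TGFβ arm. CHI3L2 was at 20.3, 23 and 22.7 TPM at 24 h and 36.4, 36.8 and 37.9 TPM at 48 h in the control arm, against 3.78, 3.82 and 4.16 TPM and 3.01, 3.46 and 3.46 TPM in the TGFβ arm. Its log2 difference at 24 h was -2.41 ± 0.09 (limma voom, adjusted p = 9.7e-15). FGG was at 5.76, 8.10 and 7.07 TPM at 24 h in the control arm and 2.09, 2.08 and 1.81 TPM in the TGFβ arm, with a log2 difference of -1.92 ± 0.12 (adjusted p = 3.1e-11). Neither gene had overlapping libraries at 24 h. PTGES and PTGS2, the synthase and the cyclooxygenase that make prostaglandin E2, were both lower with TGFβ at 24 h, with log2 differences of -1.90 ± 0.09 and -0.60 ± 0.12 (adjusted p = 5.7e-13 and 0.00038).

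BIRC3, an inhibitor of apoptosis and a target of NF-κB, was higher at 8 h than at 0 h in both arms. It was at 11.9, 11.2 and 11.4 TPM at 8 h, 7.48, 8.84 and 8.19 TPM at 24 h and 17.1, 18 and 17.4 TPM at 48 h in the control arm. The TGFβ libraries were at 9.30, 9.10 and 9.46 TPM at 8 h, 2.91, 4.21 and 3.58 TPM at 24 h and 4.87, 4.33 and 4.09 TPM at 48 h. From 8 h to 24 h it fell in both arms, with log2 changes of -0.55 ± 0.08 in the control arm and -1.44 ± 0.09 in the TGFβ arm (limma voom, adjusted p = 1.6e-05 and 2.5e-10). TGFB2, itself a TGFβ ligand, changed least in this group. It was at 21.5, 23.2 and 22.4 TPM in the control arm and 17.2, 19.7 and 14.2 TPM in the TGFβ arm at 24 h, and at 43.6, 47.4 and 44.6 TPM and 22.1, 19.5 and 20.7 TPM at 48 h. The libraries of the arms did not overlap at 24 h, and the log2 difference was -0.46 ± 0.08 (adjusted p = 0.00011), which no longer passed with length-scaled counts (-0.38, adjusted p = 0.012).

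Airway secretory and epithelial genes gave 8 members. Of these, 3 were lower with TGFβ at 8 h and all 8 at 24 h, and none rose in the TGFβ arm from 8 h to 24 h while 7 rose in the control arm. SLPI, an inhibitor of neutrophil elastase made by airway epithelium, had the largest control ratio of all members. Its control libraries were at 4.85, 3.98 and 6.07 TPM at 0 h, 7.41, 7.72 and 7.61 TPM at 8 h, 19.8, 20.9 and 25.6 TPM at 24 h and 71, 78.9 and 71.4 TPM at 48 h. Its TGFβ libraries were at 5.08, 5.87 and 5.30 TPM at 0 h, 5.15, 4.48 and 5.38 TPM at 8 h, 4.65, 4.84 and 5.56 TPM at 24 h and 5.29, 5.41 and 5.70 TPM at 48 h. The TGFβ arm was flat throughout, and the arms were apart from 8 h on. At 24 h the log2 difference was -2.09 ± 0.13 (limma voom, adjusted p = 3.9e-11).

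WFDC2, a relative of SLPI with the same whey acidic protein fold and a gene on the same stretch of chromosome 20, had a smaller ratio. It was at 171, 154 and 181 TPM at 24 h in the control arm and 82.3, 58 and 76.2 TPM in the TGFβ arm, with no overlap. Its log2 difference was -1.22 ± 0.11 (limma voom, adjusted p = 1.3e-08). BPIFB1, a secreted protein of the airway surface, was at 1.83, 2.39 and 2.08 TPM in the control arm and 0.261, 0.507 and 0.280 TPM in the TGFβ arm at 24 h, and at 7.92, 7.76 and 7.71 TPM and 0.351, 0.175 and 0.210 TPM at 48 h. It was scarce in all groups but the late control libraries, and its log2 difference at 24 h was -2.53 ± 0.23 (adjusted p = 1e-08).

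AGR2, a protein disulfide isomerase of mucin-secreting cells, was higher at each later time in the control arm, with 35.6, 36.5 and 37.4 TPM at 8 h, 47, 50.03 and 53 TPM at 24 h and 65.5, 70.9 and 70.1 TPM at 48 h. With TGFβ it was at 25.8, 23.4 and 32.2 TPM, 23.8, 26.7 and 24.7 TPM and 25.5, 28.3 and 27.3 TPM at these times, within the range of its 0 h libraries or close to it. The log2 difference at 24 h was -0.92 ± 0.08 (limma voom, adjusted p = 2.5e-09). TSPAN8, a tetraspanin of epithelial membranes, was at 277, 325 and 289.7 TPM at 24 h in the control arm and 85.7, 101 and 94.2 TPM in the TGFβ arm. It peaked at 24 h in the control arm, and the log2 difference was -1.64 ± 0.07 (adjusted p = 9e-14).

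CLDN1, a protein of tight junctions, was at 12.6, 14.4 and 12.9 TPM at 24 h and 42.7, 49.6 and 44.3 TPM at 48 h in the control arm. Under TGFβ its libraries held 7.33, 7.42 and 6.74 TPM at 24 h and 14.3, 12.9 and 12.5 TPM at 48 h. The 48 h control libraries stood far above those of 24 h, and the log2 difference at 24 h was -0.84 ± 0.09 (limma voom, adjusted p = 9.4e-08). ELF3, an epithelial transcription factor of the ETS family, was at 7.81, 5.11 and 6.43 TPM at 0 h and 15.1, 15.4 and 13.1 TPM at 8 h in the control arm. TGFβ-treated cells had 6.04, 6.08 and 6.03 TPM at 0 h and 10.8, 12.2 and 13.9 TPM at 8 h, so that all 8 h libraries lay above all 0 h libraries in both arms. At 24 h it was at 14.7, 13.9 and 16.1 TPM and 10.9, 10.4 and 10.9 TPM, and at 48 h at 17.5, 16.7 and 16.7 TPM and 7.69, 6.15 and 7.10 TPM. The TGFβ libraries of 48 h lay below those of 24 h, while the control libraries of 48 h lay above theirs. The 24 h log2 difference of ELF3 was -0.39 ± 0.08 (adjusted p = 0.00029), and scaling to 4 reference genes left -0.04 (adjusted p = 0.64). At 8 h the log2 difference of ELF3, -0.31 ± 0.07, passed (adjusted p = 0.0031), but it did not without replicate 1 or 2 of the TGFβ arm (-0.25 and -0.31) or of the control arm (-0.27 and -0.31) at 8 h. DEFB1, a beta-defensin, had the least even libraries of this group, with a 24 h log2 difference of -1.21 ± 0.30 (adjusted p = 0.0028).

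The list of mucin and airway secretory genes held 25 more tested genes that are no members. Of these, 13 were lower with TGFβ at 24 h and 1, SCGB3A2, was higher, with a median log2 difference of -0.70. At 8 h, 7 were lower. The list of epithelial junction genes, which holds CLDN1 and ELF3, went both ways. Of its 35 tested genes that are no members, 10 were lower and 6 were higher at 24 h, with a median log2 difference of -0.165. Of 34 tested genes of complement, acute phase and antimicrobial defence that are no members, 15 were lower at 24 h and 1, CD55, was higher. The 24 of them that reached 5 TPM had a median ratio of 48 h to 0 h of 4.86 in the control arm and 2.69 in the TGFβ arm, and the mean was higher at 48 h than at 0 h in 22 and 21 of them. Some lists that hold 0 members were lower as well. Of 38 tested genes of cholesterol and fatty acid synthesis, 25 were lower and 1 was higher at 24 h. The 36 of them that reached 5 TPM had a median ratio of 48 h to 0 h of 1.79 in the control arm and 1.84 in the TGFβ arm. Of 47 tested genes of quiescence, FOXO and p53, 23 were lower and 11 higher at 24 h. Against this, 27 of 35 tested genes of a list of TGFβ targets were higher and 5 lower at 24 h. At 8 h, 24 of the 35 were higher and 3 lower. Of 36 tested genes of G2 and mitosis, 14 were lower and 1 was higher with TGFβ at 24 h. In the 35 of them that reached 5 TPM, the median ratio of 48 h to 0 h was 0.227 in the control arm and 0.254 in the TGFβ arm, and the part of this change in the results was not tested.

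**Figure D4:**
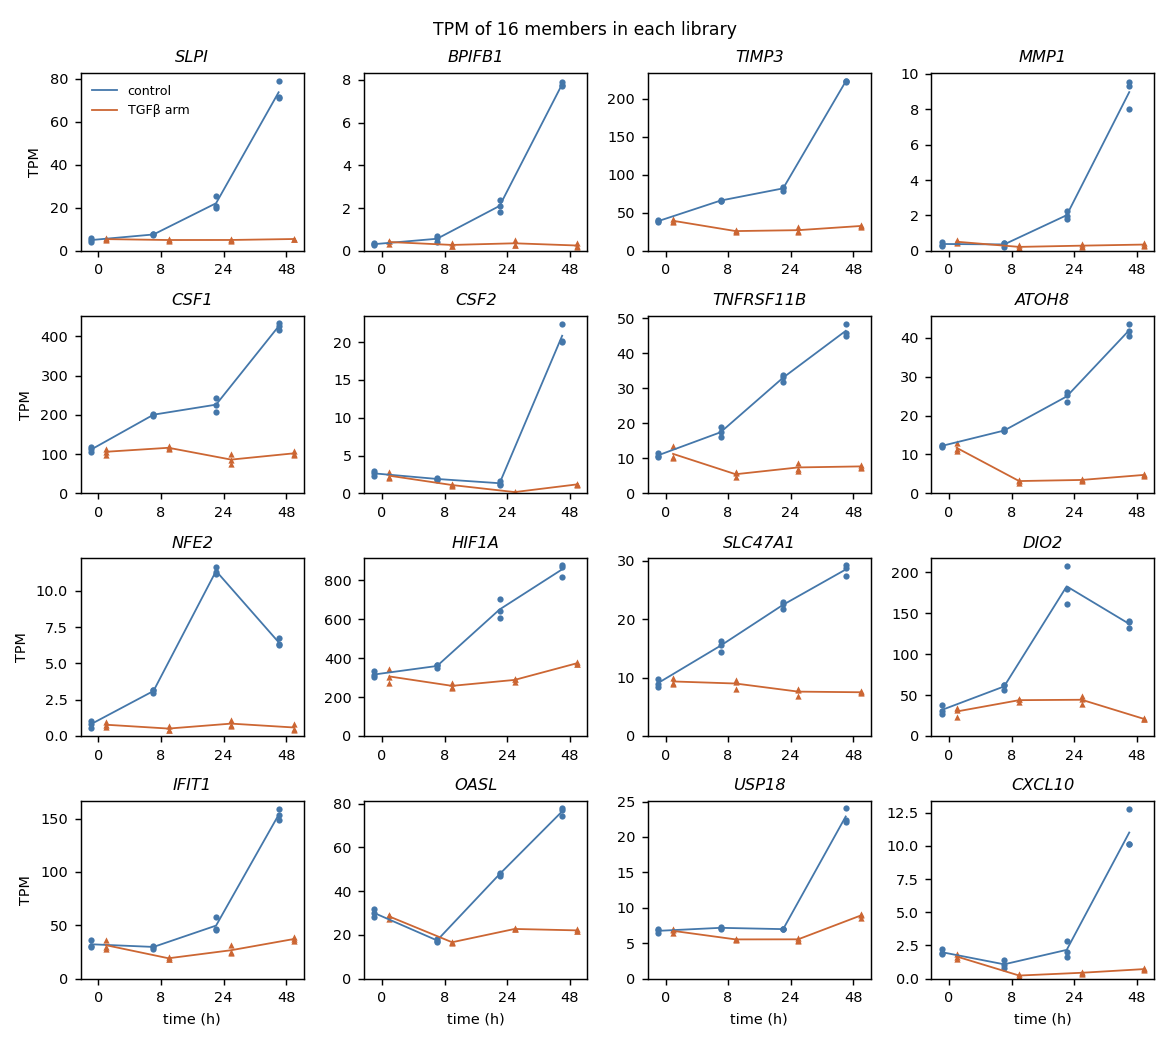
TPM (vertical, from 0) of 16 members at 0, 8, 24 and 48 h (horizontal, evenly spaced) in the 3 libraries per group of the control arm (circles) and the TGFβ arm (triangles), with lines through the means. The arms start together at 0 h and are apart at 48 h in each panel, late for USP18 and CSF2, early for ATOH8 and TNFRSF11B, with a control peak at 24 h for NFE2 and DIO2.

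Proteases and their inhibitors gave 5 members, all lower with TGFβ at 24 h. TIMP3, which inhibits metalloproteinases and is bound to the matrix, was at 37.5, 39 and 40.5 TPM at 0 h, 66.6, 66.1 and 65.6 TPM at 8 h, 79.3, 83.1 and 84.2 TPM at 24 h and 222, 224 and 224 TPM at 48 h in the control arm. In the TGFβ arm it was at 37.8, 41.3 and 39.4 TPM at 0 h, 27, 24.8 and 26 TPM at 8 h, 31.3, 24.5 and 25.6 TPM at 24 h and 34.1, 31.8 and 32 TPM at 48 h. By 8 h the control libraries lay above and the TGFβ libraries below all of their own 0 h libraries. The log2 difference was -1.30 ± 0.06 at 8 h and -1.57 ± 0.06 at 24 h (limma voom, adjusted p = 7.7e-13 and 1.2e-14).

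MMP1, the interstitial collagenase, was near 0 in every group but the late control libraries. It was at 0.424, 0.235 and 0.416 TPM at 8 h, 1.81, 1.96 and 2.26 TPM at 24 h and 8.02, 9.57 and 9.33 TPM at 48 h in the control arm. The TGFβ libraries were at 0.190, 0.157 and 0.308 TPM at 8 h, 0.253, 0.373 and 0.239 TPM at 24 h and 0.259, 0.449 and 0.345 TPM at 48 h. The arms were apart at 24 h, with a log2 difference of -2.78 ± 0.27 (limma voom, adjusted p = 3.3e-08). MMP1 shares exon positions with WTAPP1 on the other strand, a pseudogene at up to 2.84 TPM, and its part in the value was not tested. CPVL, MMP24 and PAPLN, a carboxypeptidase-like protein, a membrane-type metalloproteinase and papilin, had 24 h log2 differences of -0.74, -0.50 and -0.91. On the wider list of proteases and inhibitors, the 41 tested genes that are no members went both ways at 24 h, with 9 lower and 15 higher.

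Genes of metabolism, transport and oxygen sensing gave 6 members, and all 6 were lower with TGFβ at 8 h and at 24 h and rose in the control arm from 8 h to 24 h. HIF1A, the oxygen-regulated transcription factor, was the most abundant of all members. It was at 348, 365 and 366 TPM at 8 h, 607, 703 and 640.3 TPM at 24 h and 818, 881 and 871 TPM at 48 h in the control arm. With TGFβ it was at 246, 253 and 273 TPM at 8 h, 292, 295 and 277 TPM at 24 h and 382, 368 and 372 TPM at 48 h. No library overlapped between the arms from 8 h on. Its log2 difference was -0.41 ± 0.06 at 8 h and -1.14 ± 0.06 at 24 h (limma voom, adjusted p = 4.2e-05 and 4.2e-12). EGLN3, a prolyl hydroxylase that marks HIF proteins for destruction and is itself a HIF target, was lower as well, with log2 differences of -0.86 ± 0.07 and -1.39 ± 0.07 (adjusted p = 9e-09 and 8.8e-13).

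SLC47A1 encodes MATE1, an exporter of organic cations, and had the lowest adjusted p of the members at 24 h. It was at 14.4, 16.3 and 15.6 TPM at 8 h, 22.6, 21.8 and 23 TPM at 24 h and 28.8, 27.4 and 29.3 TPM at 48 h in the control arm. Under TGFβ its libraries held 9.51, 8.12 and 9.31 TPM at 8 h, 8.12, 6.78 and 7.87 TPM at 24 h and 7.63, 7.36 and 7.46 TPM at 48 h. The control arm was higher at each later time, whereas the TGFβ arm, with 9.15, 9.89 and 8.96 TPM at 0 h, ended below its 0 h libraries. The log2 difference was -0.70 ± 0.05 at 8 h and -1.61 ± 0.05 at 24 h (limma voom, adjusted p = 1.4e-10 and 8.4e-17). Its neighbour on chromosome 17, ALDH3A2, which oxidises fatty aldehydes, was at 147, 143 and 153 TPM in the control arm and 84.6, 84.4 and 84.8 TPM in the TGFβ arm at 8 h. At 24 h it was at 172, 177 and 169 TPM and 72.5, 70.7 and 72.7 TPM. ALDH3A2 too was apart at both times, with log2 differences of -0.79 ± 0.04 and -1.17 ± 0.04 (adjusted p = 2.4e-12 and 1.6e-15).

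UGCG, the enzyme that makes glucosylceramide, was at 43.8, 43.5 and 47.3 TPM at 8 h and 78.3, 98 and 84.5 TPM at 24 h in the control arm and at 20.1, 21.2 and 21.9 TPM and 21.4, 23.5 and 21.4 TPM in the TGFβ arm. Its libraries were apart at both times, with log2 differences of -1.02 ± 0.07 and -1.89 ± 0.06 (limma voom, adjusted p = 1.4e-10 and 1.4e-15). DIO2, which activates thyroid hormone, was higher at 8 h than at 0 h in both arms. It was at 56.7, 62.5 and 62.3 TPM at 8 h, 161, 208 and 180.1 TPM at 24 h and 131, 139 and 140.4 TPM at 48 h in the control arm. TGFβ-treated cells had 41.2, 44.7 and 45.2 TPM at 8 h, 44.6, 49.2 and 38.8 TPM at 24 h and 20.1, 21.7 and 20.3 TPM at 48 h. The arms did not overlap at 24 h, with a log2 difference of -1.95 ± 0.08 (adjusted p = 5.8e-14). The 8 h log2 difference of DIO2, -0.33 ± 0.09, passed (adjusted p = 0.0074), but it did not when any single library of 8 h was left out (-0.30 to -0.35) or replicate 3 of the control arm at 0 h (-0.32). The log2 change of DIO2 from 8 h to 24 h was 1.56 ± 0.08 in the control arm and -0.06 ± 0.09 in the TGFβ arm, and the difference between them was -1.63 ± 0.12 (adjusted p = 8.3e-09).

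Transcription factors and a linker histone gave 4 members, 3 lower at 8 h and all 4 at 24 h. Their 24 h log2 differences had a median of -2.15 and went from -3.76 for NFE2 to -0.80 for H1-2. ATOH8, a basic helix-loop-helix factor, was at 12.1, 11.9 and 12.6 TPM at 0 h, 15.9, 16.6 and 15.9 TPM at 8 h, 25.2, 23.5 and 26 TPM at 24 h and 41.8, 43.6 and 40.5 TPM at 48 h in the control arm. In the TGFβ arm it was at 13, 10.9 and 11.3 TPM at 0 h, 2.78, 3.48 and 3.22 TPM at 8 h, 3.76, 3.12 and 3.45 TPM at 24 h and 5.04, 4.46 and 4.75 TPM at 48 h. In the TGFβ arm the mean was lowest at 8 h, and no later library came back to the 0 h level. Its log2 difference was -2.21 ± 0.13 at 8 h and -2.90 ± 0.13 at 24 h (limma voom, adjusted p = 2.3e-11 and 1.3e-13). The 8 h difference minus the 0 h difference was -2.08 ± 0.17 (adjusted p = 1.2e-08).

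NFE2, a basic leucine zipper factor known from blood cells, was chosen for display after its values were seen, as the member with the largest 24 h difference. It was at 0.837, 0.552 and 1.04 TPM at 0 h, 2.98, 3.18 and 3.15 TPM at 8 h, 11.3, 11.7 and 11.2 TPM at 24 h and 6.78, 6.34 and 6.27 TPM at 48 h in the control arm. The TGFβ libraries were at 0.788, 0.584 and 0.950 TPM at 0 h, 0.431, 0.686 and 0.410 TPM at 8 h, 1.09, 0.717 and 0.743 TPM at 24 h and 0.442, 0.488 and 0.824 TPM at 48 h. The control mean was highest at 24 h and the TGFβ arm stayed near 1 TPM or below. The log2 difference was -2.61 ± 0.21 at 8 h and -3.76 ± 0.17 at 24 h (limma voom, adjusted p = 3.4e-09 and 1.5e-13). OSR1, a zinc finger factor, had log2 differences of -0.75 ± 0.13 and -1.39 ± 0.13 (adjusted p = 0.00014 and 3.3e-08). H1-2, a linker histone, was at 88.2, 97.8 and 93.5 TPM in the control arm and 53.1, 52.3 and 51.2 TPM in the TGFβ arm at 24 h, a log2 difference of -0.80 ± 0.07 (adjusted p = 4.6e-09). Its value is uncertain since histone genes are near-identical copies whose reads can be split between them.

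Genes of intracellular signalling gave 7 members, 5 lower at 8 h and all 7 at 24 h. PDE4B, a phosphodiesterase that degrades cyclic AMP, was at 4.93, 5.42 and 5.27 TPM at 8 h and 11.3, 12.4 and 11.4 TPM at 24 h in the control arm. With TGFβ it was at 2.10, 2.37 and 2.65 TPM at 8 h and 2.53, 2.57 and 2.44 TPM at 24 h. The control libraries of 24 h stood above every library of 8 h and of the TGFβ arm, and the log2 difference was -1.06 ± 0.08 at 8 h and -2.15 ± 0.08 at 24 h (limma voom, adjusted p = 1.7e-09 and 3.9e-15). ARHGAP24, which switches off Rac, was lower at 8 h than at 0 h in both arms. It was at 9.61, 10.8 and 8.98 TPM at 8 h in the control arm and 4.99, 5.15 and 4.92 TPM in the TGFβ arm, and was at 24.4, 27.5 and 25.2 TPM and 8.16, 8.78 and 7.86 TPM at 24 h. It rose from 8 h to 24 h in both arms, with log2 changes of 1.37 ± 0.06 in the control arm and 0.77 ± 0.07 in the TGFβ arm (limma voom, adjusted p = 2.1e-13 and 3.1e-08), and the difference between these changes was -0.60 ± 0.09 (adjusted p = 0.0001). RGS2, a regulator of G protein signalling, and PPFIBP2, a liprin, were also lower at both times, with 24 h log2 differences of -2.19 and -1.70. ADGRG1, RASD1 and FHDC1, an adhesion receptor, a small GTPase and a formin-related protein, had 24 h log2 differences of -1.41, -1.28 and -1.04. For FHDC1 the libraries of the arms were already apart at 0 h, with 2.11, 2.20 and 1.91 TPM in the control arm and 1.40, 1.12 and 1.90 TPM in the TGFβ arm.

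Adhesion and neuronal membrane proteins gave 7 members, 4 lower at 8 h and all 7 at 24 h. CNTNAP1, CNTN1 and GLDN are known from the contacts between axons and glia. CNTNAP1 was at 4.54, 4.91 and 4.86 TPM at 8 h and 10.6, 10.1 and 10.8 TPM at 24 h in the control arm and at 2.83, 2.69 and 2.46 TPM and 3.18, 2.49 and 3.49 TPM in the TGFβ arm. Its arms were apart at both times, with log2 differences of -0.74 ± 0.09 and -2.02 ± 0.08 (limma voom, adjusted p = 1.3e-06 and 2.2e-14). CNTN1 and GLDN had 24 h log2 differences of -0.37 and -1.42. PCDH7, a protocadherin, was at 10.2, 8.84 and 8.73 TPM at 8 h and 16.7, 16.2 and 17 TPM at 24 h in the control arm and at 4.08, 4.48 and 4.54 TPM and 4.87, 4.69 and 4.70 TPM in the TGFβ arm. In the TGFβ arm it lay well below its 0 h libraries of 7.78, 8.37 and 9.64 TPM, and the log2 differences were -1.02 ± 0.07 and -1.90 ± 0.07 (adjusted p = 2.4e-10 and 2.6e-15). IGSF1 and SCG2, an immunoglobulin superfamily protein and a granin, had 24 h log2 differences of -1.56 and -0.82. PCDH20, a second protocadherin, had a 24 h log2 difference of -1.60, at the time through which it met the limit of 5 TPM.

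The last 3 members fit none of these groups. EVA1C was at 19.4, 19.9 and 21 TPM in the control arm and 8.77, 8.10 and 10.9 TPM in the TGFβ arm at 24 h, without overlap. Its log2 difference was -1.20 ± 0.08 (limma voom, adjusted p = 4.1e-11). LAMP3, a lysosomal membrane protein, and KIAA0040 had 24 h log2 differences of -1.72 and -0.60.

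Some members are neighbours in the genome. Besides the 4 IFIT genes on chromosome 10, pairs of members lay within 500 kb of each other on chromosome 11 (BIRC3 and MMP1), chromosome 17 (SLC47A1 and ALDH3A2, CNTNAP1 and IFI35), chromosome 2 (CMPK2 and RSAD2) and chromosome 20 (SLPI and WFDC2). The gap between SLC47A1 and ALDH3A2 was 69102 bases and that between SLPI and WFDC2 was 215189 bases in the GENCODE annotation of GRCh38. Exons of 10 members shared positions with exons of another gene, and in 6 of these the other gene reached 1 TPM.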

How the data were processed

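RNA of SK-MES1 cells was sequenced in 24 libraries. The authors quantified reads with kallisto 0.43.0 (named in the submitters' processing notes) against Ensembl transcripts of GRCh38 and deposited, per library, estimated counts (expected reads per transcript, not whole numbers, not normalized) and TPM. These TPM values deposited by the authors correct the counts for effective length and share a common total, so a change in abundant genes shifts all others.

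Transcripts were assigned to genes by identifier with GENCODE release 44; 17741 of 173259 had no match and were left out. TPM were summed per gene, and the rule was applied with a pseudocount of 0.5. Estimated counts were summed and rounded. The 17453 genes with at least 10 counts in at least 3 libraries were tested in limma 3.58.1 (voom, TMM, 8 group means, R 4.3.3), 2-sided, with Benjamini-Hochberg adjustment over these genes and a threshold of 0.01, after a test on simulated data. All 64 members passed this filter, also in the 8 h and 24 h libraries alone. SE is the standard error of a log2 value. edgeR 4.0.16, DESeq2 1.42.0, other scalings and filters, and leaving out each library served as alternatives. Tables were handled in Python 3.11.15 with pandas 2.3.3.

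The members, gene lists and roles were chosen with earlier results of these data known. Library values are given for list members, the lowest adjusted p at 24 h and 8 h, the highest control level, the extreme ratios and the genes at the limits of the rule; roles were assigned after values were seen. No pair of replicate libraries agreed within sampling noise.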

Additional observations from a re-analysis of the deposited data

Results flagged for a closer look

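The change from 8 h to 24 h differed between the arms, by a direct test of the difference in limma voom at an adjusted p below 0.01, in 40 of the 64 members, where 2.54% of all genes had such a difference below 0 and 4.14% above 0. In each of the 40 the change was smaller, or more strongly downward, in the TGFβ arm. Of these 40, 27 were selected by the naming rule. Among the 27, the difference in log2 change, TGFβ minus control, was largest in size for MMP1 (-2.18), CSF2 (-2.06), CHI3L2 (-1.75), DIO2 (-1.63), BPIFB1 (-1.60), SLPI (-1.57), CNTNAP1 (-1.28), FGG (-1.18), PDE4B (-1.09). It was intermediate for OASL (-1.05), TSPAN8 (-1.02), WFDC2 (-0.99), SLC47A1 (-0.91), BIRC3 (-0.89), UGCG (-0.87), PCDH7 (-0.87), EVA1C (-0.73), HIF1A (-0.72). It was smallest for IFIT2 (-0.72), H1-2 (-0.71), CSF1 (-0.64), ARHGAP24 (-0.60), CLDN1 (-0.58), TNFRSF11B (-0.52), AGR2 (-0.49), STING1 (-0.46) and ALDH3A2 (-0.38). Among the other 13 it went from -1.45 for ADGRG1, -1.29 for LAMP3, -1.26 for IGSF1 and -1.15 for NFE2 to -0.53 for EGLN3. In each arm the 8 h and 24 h libraries carry different codes, and the part of that in these differences was not tested.

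Among the members selected by the naming rule, single libraries decided the call for 5. Members outside that rule are not listed here by library. With a single library left out, the number of members with a different change went down to 33 at the lowest. That is a larger loss than these 5 account for, so the call of some other members hung on a single library too. AGR2 did not pass without replicate 1 of the TGFβ arm at 24 h (-0.41), replicate 3 of the TGFβ arm at 8 h (-0.42), replicate 2 of the control arm at 24 h (-0.45) or replicate 1 or 2 of the control arm at 8 h (-0.48 and -0.47). BPIFB1 did not pass without replicate 1 or 3 of the TGFβ arm at 24 h (-1.44 and -1.47), replicate 2 of the TGFβ arm at 8 h (-1.43) or replicate 2 of the control arm at 8 h (-1.37). CLDN1 did not pass without replicate 3 of the TGFβ arm at 24 h (-0.54), replicate 1 or 2 of the TGFβ arm at 8 h (-0.55 and -0.56) or replicate 1 of the control arm at 8 h (-0.54). MMP1 did not pass without replicate 3 of the TGFβ arm at 8 h (-1.87). TNFRSF11B did not pass without replicate 2 or 3 of the TGFβ arm at 24 h (-0.45 and -0.49), replicate 3 of the TGFβ arm at 8 h (-0.44), replicate 3 of the control arm at 24 h (-0.52) or replicate 1 or 2 of the control arm at 8 h (-0.47 and -0.51).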

How the results depend on the processing

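The counts of members stayed within 1.5 times their value under the alternatives run, apart from 4 values. With length-scaled counts 8 members rose from 8 h to 24 h in the TGFβ arm in place of 13. The number of members was 107 with a control ratio of at least 2, 37 with one of at least 3, and 37 with a TGFβ ratio of at most 1, and the cause of each is the limit itself. Leaving out each library in turn gave 32 to 41 members lower at 8 h, 60 to 63 lower at 24 h, 50 to 52 rising in the control arm, 10 to 14 rising in the TGFβ arm, 33 to 43 with a different change, and 60 to 67 members. With the replicate number as a replicate block, 42 members were lower at 8 h and 63 at 24 h, 52 rose in the control arm, 15 rose in the TGFβ arm and 41 differed in their change. The labels number the replicates without saying that numbers are paired, and libraries of the same number and time in the 2 arms deviated together with a mean correlation of 0.076 over 12 pairs, 4 of them over 0.1, so no pairing was assumed.

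Scaling to 4 reference genes moved the median of all genes at 24 h from -0.02 to 0.34 on the log2 scale, and 30 members were then lower at 8 h and 49 at 24 h. Relative to that shift IFIT5 (0.12) and USP18 (0.048) stood below the median at 24 h although their sign turned. At 8 h IFIT5 (0.072) and OASL (0.090) turned as well. The 8 h value of OASL, close to 0, also changed sign without replicate 3 of the TGFβ arm at 8 h (0.0045), replicate 3 of the control arm at 0 h (0.0043), or replicate 1 or 2 of the control arm at 8 h (0.021 and 0.014), and was lowest, at -0.040, without replicate 3 of the control arm at 8 h. Without 1 library the 8 h differences of BIRC3 (-0.27), IFIT2 (-0.37), SLPI (-0.52) and BPIFB1 (-0.93, or -1.16 without replicate 2 of the control arm at 8 h), not called otherwise, could pass. Without the 15 interferon members, an alternative chosen after seeing the data, 31 of 49 members were lower at 8 h and 49 at 24 h. With the limit of 5 TPM applied at 0 h and 48 h alone, also chosen after seeing the data, 63 members remained and 51 rose in the control arm. Depth limits CSF2, MMP1, BPIFB1 and CXCL10.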
